A study of Mus musculus with 4 samples.

Results

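The cell cycle genes described here are 36 of the 32285 genes measured in mouse lung by single-cell RNA sequencing. They are a list of symbols chosen for their known roles, with earlier results of these data known, and no measured value enters the rule. All 36 were found in the tables. By role, 13 act in S phase, 21 act in G2 and mitosis (G2/M), and the other 2, Stmn1 and Hmgb2, are growth-linked genes that are also abundant in cells that do not divide. The study has 4 groups with 1 library each. All animals were wild-type male C57BL/6 mice 6 to 7 weeks old, and all received an injection into the trachea. The PBS group received the saline vehicle, the LPS group received 200 µg of lipopolysaccharide of E. coli O55:B5, and the PBS+RT and LPS+RT groups received in addition 1 Gy of X-rays to the chest on the following day. Lungs were collected 48 hours after the injection, which was 24 hours after irradiation. Cells were released with enzymes, and the mononuclear layer of a Ficoll gradient was loaded on the 10x 3' platform. The labels do not state how many mice went into a library, so spread between animals cannot be seen, no test between groups was possible, and each interval below covers counting error only.

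A dividing cell copies its DNA in S phase with a ring-shaped helicase (the Mcm proteins), a sliding clamp (Pcna) and a supply of deoxynucleotides made by enzymes such as Rrm1, Rrm2, Tyms and Tk1. In G2 and mitosis the kinase Cdk1 with cyclins A and B drives chromosome condensation, spindle assembly and the checkpoint that holds anaphase until every chromosome is attached. In the lung at rest most cells are out of the cycle, tissue macrophages can renew themselves by division within the organ, and ionising radiation is known to hold cycling cells at checkpoints through p53 and its target Cdkn1a.

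Genes of this kind share promoter elements, and 4 promoter windows are shown. They were picked from a fixed list of members among those with matches to the elements named below, so they do not stand for the other genes. The windows hold 250 bases before and 50 bases after the RefSeq start on GRCm38.p6, written 5′ to 3′ on the gene's strand. Capitals mark every match, on either strand, to the cell cycle homology region (CHR, TTTGAA or TTCGAA), the CCAAT box (CCAAT) and the E2F element (TTTCCCGC, TTTGGCGC, TTTCGCGC or TTTGCCGC). Mki67 is at chr7:135716330-135716629 on the minus strand, Top2a at chr11:99024140-99024439 on the minus strand, Cdk1 at chr10:69352863-69353162 on the minus strand and Mcm5 at chr8:75109259-75109558 on the plus strand.
Mki67: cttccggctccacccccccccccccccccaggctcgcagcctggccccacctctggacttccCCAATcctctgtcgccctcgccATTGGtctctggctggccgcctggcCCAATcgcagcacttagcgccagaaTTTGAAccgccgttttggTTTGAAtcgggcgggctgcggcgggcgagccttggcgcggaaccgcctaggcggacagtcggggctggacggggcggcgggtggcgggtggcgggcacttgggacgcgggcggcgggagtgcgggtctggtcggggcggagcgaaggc
Top2a: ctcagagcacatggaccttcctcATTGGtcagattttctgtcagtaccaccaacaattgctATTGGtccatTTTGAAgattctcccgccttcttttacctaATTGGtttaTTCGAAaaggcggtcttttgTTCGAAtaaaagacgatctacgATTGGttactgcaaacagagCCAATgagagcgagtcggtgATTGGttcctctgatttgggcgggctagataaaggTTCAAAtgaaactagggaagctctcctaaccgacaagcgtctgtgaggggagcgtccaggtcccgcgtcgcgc
Cdk1: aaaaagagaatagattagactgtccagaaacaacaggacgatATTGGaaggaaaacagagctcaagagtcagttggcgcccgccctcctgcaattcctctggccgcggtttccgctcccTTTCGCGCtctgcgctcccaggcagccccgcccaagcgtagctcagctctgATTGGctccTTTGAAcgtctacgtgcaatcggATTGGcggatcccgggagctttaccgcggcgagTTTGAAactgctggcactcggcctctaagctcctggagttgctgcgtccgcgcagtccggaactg
Mcm5: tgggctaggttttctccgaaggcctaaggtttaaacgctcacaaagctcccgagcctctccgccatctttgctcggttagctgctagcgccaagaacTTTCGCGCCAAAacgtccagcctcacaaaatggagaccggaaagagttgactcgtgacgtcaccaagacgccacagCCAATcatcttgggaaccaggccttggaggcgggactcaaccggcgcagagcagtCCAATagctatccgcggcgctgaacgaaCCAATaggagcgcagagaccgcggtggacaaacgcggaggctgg
A promoter window was found for 30 of the 36 genes. The Tyms window held no match and the Rrm2 window a CCAAT box alone, and neither is shown. A CHR match lay in 14 of 18 G2/M windows and in 2 of 11 S phase windows, against 19.4% of the windows of 27025 genes. A CCAAT box lay in 16 of 18 G2/M windows and 9 of 11 S phase windows, against 37.8% of all windows. An E2F match lay in 4 of 11 S phase windows (Mcm3, Mcm5, Mcm6 and Mcm7) and in the Cdk1 window alone among the 18 G2/M windows, against 2.34% of all windows. These matches describe letters in a window, and a window without a match says nothing about binding.

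After filtering, 33667 cells remained, between 6192 and 9629 per library, with a median of 4273 to 8551.5 UMIs per cell, highest in PBS+RT. Cells were clustered with 282 cell cycle and related genes, the members among them, left out. They were named from markers into 20 classes, and 6000 cells stayed unnamed, doublets included. A cell was counted as marked for cycling when at least 3 of the 34 S phase and G2/M genes had a UMI after each cell was thinned to 2000 UMIs, which makes cells of different depth comparable. In all, 771 cells were marked, of which 334 (43.3%) held exactly 3 of the genes, and 1622 unmarked cells held exactly 2. Alveolar type 1-like cells, which divide rarely, showed how often the count was reached with little cycling. Among alveolar type 1-like cells, 0 of 177 in PBS and 0 of 197 in PBS+RT, and 0 of 49 in LPS and 1 of 142 in LPS+RT were marked. A count of 0, taken as at most 3 cells, allows shares of up to 1.69%, 1.52% and 6.12% in the first 3 libraries, so the level is known least well in LPS. Median depth over all cells of this class was 1651 to 2358 UMIs. Among the 2954 neutrophil-like cells of LPS 0.98% were marked. The class includes cluster 23, led by the immature neutrophil genes Ngp and Camp, with 6 of 199 cells marked in LPS (3.02%). In the same library, cluster 4 had 10 of 1441 cells marked (0.69%) and cluster 9 had 9 of 758 (1.19%). Clusters 16 and 21 had 2 of 77 (2.60%) and 2 of 479 (0.42%). The class as a whole was not taken as a level without cycling.

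Among the classes in the plot of shares, the 2 macrophage classes had the highest shares of marked cells in LPS. In alveolar macrophage-like cells, 36 of 638 cells were marked in PBS (5.64%, exact binomial interval 3.98 to 7.73) and 5 of 682 in PBS+RT (0.73%, 0.24 to 1.70), and 60 of 184 in LPS (32.6%, 25.9 to 39.9) and 132 of 810 in LPS+RT (16.3%, 13.8 to 19). Over the whole class the order from low to high was PBS+RT, PBS, LPS+RT, LPS, and the 4 intervals did not overlap. The share in PBS+RT was 0.13 times that in PBS (interval 0.040 to 0.33), the share in LPS+RT was 0.50 times that in LPS (0.37 to 0.69), and the share in LPS was 5.78 times that in PBS (3.76 to 8.99). Between the irradiated libraries, the share in LPS+RT was 22.2 times that in PBS+RT (9.29 to 69.6). The PBS+RT share of 0.73% was under the limit, given above, that the count of 0 among 197 alveolar type 1-like cells of that library allows. The size depends on what marks a cell: as a log2 ratio, the share in PBS+RT against PBS was -2.94, but -1.24 with at least 2 genes and -1.0 with other S phase and G2/M genes in place of the members, and LPS against PBS was 2.53, 1.65 and 1.67 by the same 3 counts. These cells were deep, with medians of 23626, 23649, 37136.5 and 25802.5 UMIs in the same order of libraries, and without thinning 76.5%, 67.4%, 94.6% and 82.7% of them met the count of 3 genes. Cells left out for having under 2000 UMIs numbered 0 to 3 per library.

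**Figure D1:**
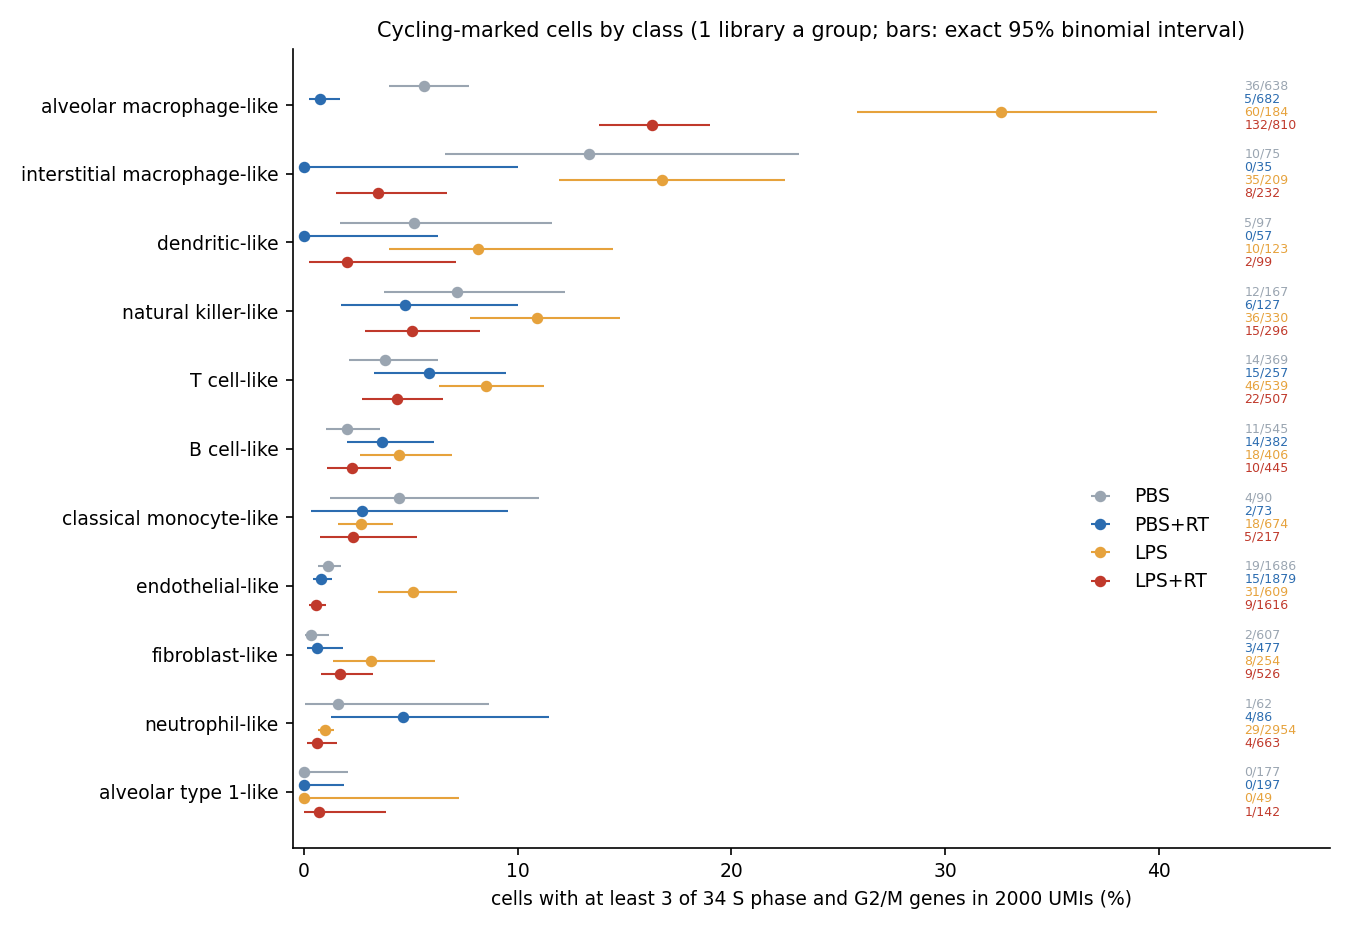
Percent of cells with at least 3 of the 34 S phase and G2/M genes in 2000 UMIs (x axis), by class (y axis) and library (color); points are shares, bars exact 95% binomial intervals, and the numbers at the right are marked over all cells. The alveolar macrophage-like class spans 0.73% in PBS+RT to 32.6% in LPS, and alveolar type 1-like cells lie at or near 0.

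The alveolar macrophage-like class was made of 2 clusters, both named by at least 12 of 14 alveolar macrophage markers, and the libraries used them unequally. Cluster 6, led by Kcnip4, Fabp1 and Ear1, held 584 of 640 cells in PBS and 673 of 685 in PBS+RT, and 8 of 184 in LPS. Cluster 14, led by Marco, Ctsk and Ccl6 and with the replication factor Pclaf among its leading genes, held 176 of 184 cells in LPS and 609 of 812 in LPS+RT. Pclaf was not among the genes left out of clustering, and its part in the split of the 2 clusters was not tested. Within cluster 6, 25 of 582 cells were marked in PBS (4.30%, 2.80 to 6.28), 5 of 670 in PBS+RT (0.75%) and 6 of 202 in LPS+RT (2.97%, 1.10 to 6.35). Within cluster 14, 11 of 56 were marked in PBS (19.6%, 10.2 to 32.4), 60 of 176 in LPS (34.1%) and 126 of 608 in LPS+RT (20.7%, 17.6 to 24.2). The intervals of PBS and LPS+RT thus overlapped within each cluster, and the higher share of LPS+RT over the class was not seen within cluster 6. The irradiated library was thus lower within cluster 6 on the PBS side and within cluster 14 on the LPS side. Levels are given in CPM, the UMIs of a gene for every 1000000 UMIs of all genes in the same cells and library. The distance between LPS and PBS was smaller within cluster 14 than over the class, and the 21 G2/M genes there summed to 967 CPM in PBS and 96.3 in PBS+RT (12 cells), and 1382 in LPS and 835 in LPS+RT. Of Mki67 UMIs in a whole library, alveolar macrophage-like cells held 59.7% in PBS and 20.1% in PBS+RT, and 30.9% in LPS and 71.2% in LPS+RT.

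In alveolar macrophage-like cells the members differed between libraries by unequal amounts. In PBS+RT against PBS the median log2 ratio of CPM was -1.35 over the 13 S phase genes and -1.94 over the 21 G2/M genes, against -0.07 over all 13082 genes tested. All 13 S phase genes and 20 of 21 G2/M genes were at least 1.5-fold lower, a size that 16.4% of all genes reached in that direction. In LPS+RT against LPS the medians were -0.45 and -0.71, against -0.10 over all genes. Of the S phase genes 4 of 13, and of the G2/M genes 14 of 21, were at least 1.5-fold lower there, against 15.1% of all genes. In LPS against PBS both medians were 1.5 against -0.00 over all genes, and 13 of 13 and 19 of 21 genes were at least 1.5-fold higher, against 17.7%. In LPS+RT against PBS+RT the medians were 2.23 and 2.72 against -0.07 over all genes, and all 34 genes were at least 1.5-fold higher, against 18.2%. These comparisons share libraries and are not independent of each other. The LPS against PBS medians were 0.36 and 0.027 when cluster 6 was left out, which compares 56 cells of PBS with 176 of LPS in cluster 14.

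**Figure D2:**
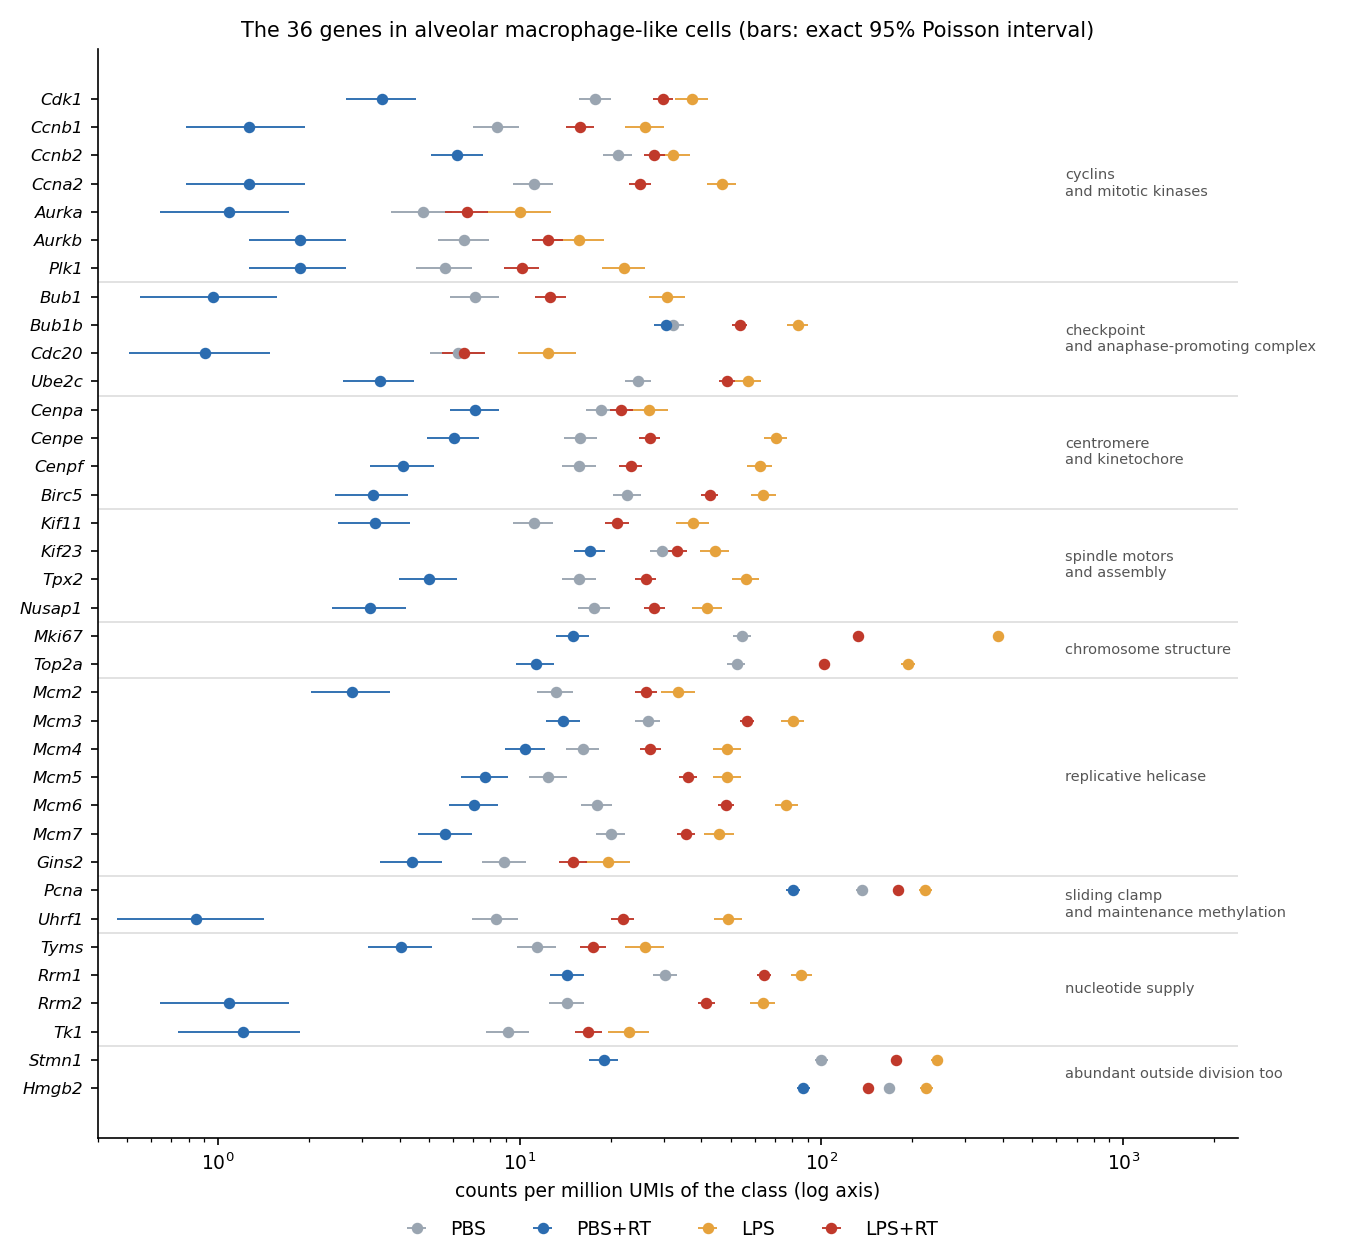
CPM of each of the 36 genes in alveolar macrophage-like cells (x axis, log scale), 1 row per gene grouped by role, 1 point per library with its exact 95% Poisson interval. PBS+RT is the lowest library and LPS the highest in all 36 rows, and Bub1b is the gene whose PBS and PBS+RT points nearly coincide (32.2 and 30.5).

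Among genes of chromosome structure, Mki67, which coats mitotic chromosomes and is the standard proliferation marker, was at 54.6 CPM in PBS and 15 in PBS+RT, and 385 in LPS and 132 in LPS+RT. Its log2 ratio was -1.86 (-2.07 to -1.66) between the PBS libraries, -1.54 (-1.62 to -1.46) between the LPS libraries and 2.82 (2.71 to 2.93) for LPS against PBS. It was the member with the largest ratio in the last comparison and with the lowest in LPS+RT against LPS. Top2a, the topoisomerase that untangles sister chromatids, followed the same order with 52.3, 11.3, 194 and 102 CPM, and its ratios were -2.21 and -0.92 for the irradiated libraries.

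The cyclins and mitotic kinases had a median log2 ratio of -2.13 in PBS+RT against PBS and -0.59 in LPS+RT against LPS. Cdk1, the kinase of mitotic entry, was at 17.8 CPM in PBS and 3.50 in PBS+RT, and 37.1 in LPS and 29.9 in LPS+RT. Its partner cyclin B1 (Ccnb1) was at 8.39, 1.27, 25.9 and 15.9 CPM. Cyclin A2 (Ccna2), which acts in S phase and G2, had a log2 ratio of -3.13 (-3.86 to -2.48) between the PBS libraries, the third lowest of the 36. Cyclin B2 (Ccnb2) was the member with the smallest difference between the LPS libraries, -0.21 (-0.43 to 0.02), an interval that reached past 0. Aurka, Aurkb and Plk1, the mitotic kinases, had log2 ratios of -2.13, -1.81 and -1.60 between the PBS libraries and -0.59, -0.35 and -1.12 between the LPS libraries.

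The checkpoint and anaphase genes spanned from among the widest to the narrowest differences of the G2/M genes. Bub1, a checkpoint kinase, had a log2 ratio of -2.88 in PBS+RT against PBS and -1.28 in LPS+RT against LPS. Bub1b, which encodes BubR1, was at 32.2 CPM in PBS and 30.5 in PBS+RT, and 83.3 in LPS and 53.5 in LPS+RT, and its ratio of -0.08 (-0.26 to 0.10) between the PBS libraries made it the only member not at least 1.5-fold lower there. Only 27.1% of Bub1b UMIs of this class in PBS came from marked cells, against 91.7% of Top2a UMIs. The ubiquitin-conjugating enzyme Ube2c had ratios of -2.84 and -0.23, so it was far lower in the irradiated PBS library and among the least different between the LPS libraries. Cdc20, the activator of the anaphase-promoting complex, had ratios of -2.78 and -0.92.

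At the centromere and on the spindle, the large kinetochore proteins Cenpe and Cenpf showed ratios of -1.39 and -1.42 in LPS+RT against LPS, the lowest after Mki67. Cenpa, the centromeric histone, was at 18.6, 7.12, 26.8 and 21.7 CPM, with a ratio of -0.30 between the LPS libraries. The spindle genes Kif11, Kif23, Tpx2 and Nusap1 had ratios from -2.47 (Nusap1) to -0.80 (Kif23) between the PBS libraries. Kif23, which is needed for cytokinesis, was also among the 3 genes with the smallest ratios for LPS against PBS, 0.58, with Hmgb2 at 0.41 and Cenpa at 0.53.

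The S phase genes covered a wide range of ratios in PBS+RT against PBS. Rrm2, the regulated subunit of ribonucleotide reductase, was at 14.3 CPM in PBS and 1.09 in PBS+RT, and 63.9 in LPS and 41.5 in LPS+RT, and its ratio of -3.72 (-4.50 to -3.02) was the lowest of all 36. Uhrf1, which carries DNA methylation through replication, was next at -3.30 (-4.21 to -2.50), with 8.32, 0.84, 49.1 and 22.0 CPM. Thymidylate synthase (Tyms) was at 11.4, 4.04, 25.9 and 17.5 CPM. In all 3 genes PBS+RT stood below the other 3 libraries with no overlap of intervals.

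The helicase genes were less far apart, with a median of -1.01 between the PBS libraries and -0.44 between the LPS libraries. Mcm5 was at 12.5, 7.67, 48.8 and 36.1 CPM, with a ratio of -0.70 (-1.03 to -0.37) between the PBS libraries, and Mcm4 had -0.63, so these were the members next to Bub1b at the upper end. Pcna was at 136, 80.5, 221 and 179 CPM, with ratios of -0.75 and -0.30. Stmn1, a regulator of microtubules, was at 99.9, 19, 242 and 176 CPM, and Hmgb2, a chromatin protein, at 167, 87.1, 223 and 143. In PBS, 27.3% of Pcna UMIs and 35.8% of Hmgb2 UMIs came from marked cells, against 93.8% of Rrm2 UMIs, and these shares use the genes by which the cells were marked.

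Marked alveolar macrophage-like cells carried genes of both phases. Of the 36 marked cells of PBS, 9 had at least 3 genes of each phase, 7 of S phase only and 12 of G2/M only. In LPS+RT these numbers were 36, 36 and 37 of 132 cells, and in LPS 14, 15 and 23 of 60. More G2/M than S phase genes were detected in 61.1% of marked cells in PBS (43.5 to 76.9), 51.7% in LPS (38.4 to 64.8) and 51.5% in LPS+RT (42.7 to 60.3), and these intervals overlapped. In PBS+RT it was 4 of 5 marked cells, too few to place (28.4 to 99.5%). By phase, the S phase share was 0.058 times as high in PBS+RT as in PBS (1 and 16 cells) and the G2/M share 0.13 times (3 and 21 cells). The corresponding values for LPS+RT against LPS were 0.56 (0.36 to 0.90) and 0.45 (0.30 to 0.68). The intervals of the S phase and G2/M values overlapped in both pairs.

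**Figure D3:**
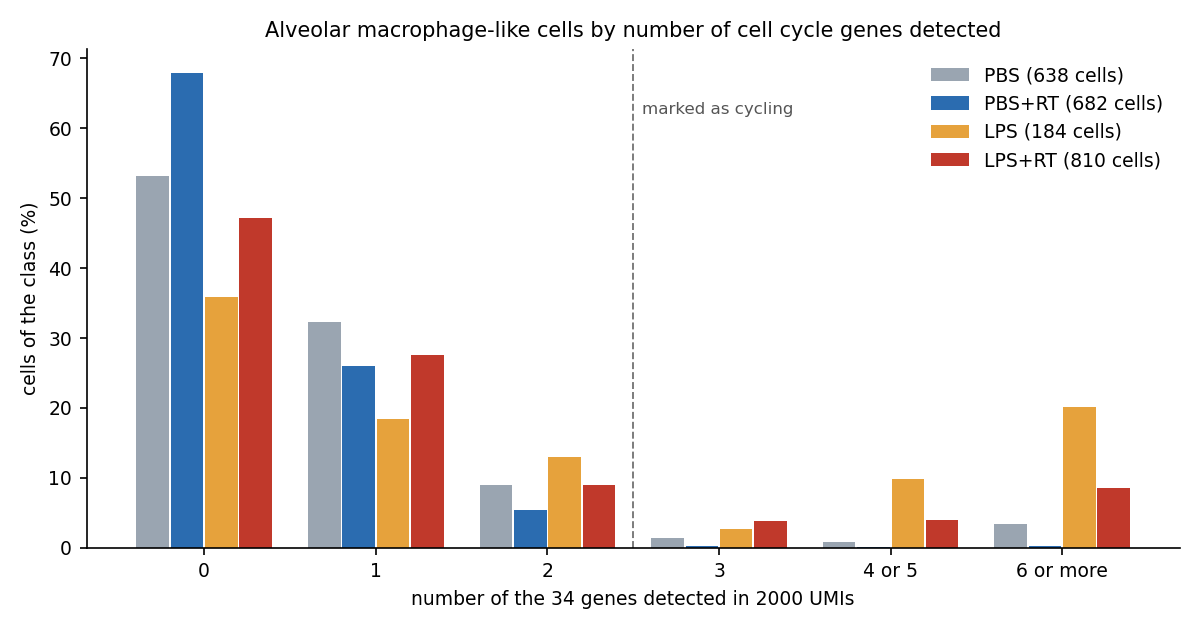
Percent of alveolar macrophage-like cells (y axis) by the number of the 34 genes with a UMI in 2000 UMIs (x axis), for each library; the dashed line is the minimum of 3. Cells with 6 or more genes numbered 22 in PBS and 2 in PBS+RT, and 37 in LPS and 69 in LPS+RT, so the shares do not rest on cells at 3 genes alone.

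Other cell cycle genes, from lists that do not hold the members, were set beside them in the same class. The share of all genes at least 1.5-fold lower, 16.4% in PBS+RT against PBS and 15.1% in LPS+RT against LPS, is the background for each count. Of 30 further S phase genes, 25 were at least 1.5-fold lower in PBS+RT against PBS (median -1.44) and 23 in LPS+RT against LPS (median -0.85). Of 43 further G2 and M phase genes, 40 and 30 were lower by that size, with medians of -1.87 and -0.89. Foxm1, the transcription factor of G2/M genes, was at 4.19 CPM in PBS and 0.54 in PBS+RT, and 12.8 in LPS and 7.30 in LPS+RT. Cyclin E2 (Ccne2), which acts at S phase entry, was at 5.59, 1.15, 27.1 and 14.2 CPM.
The 12 genes of G1 entry lay closer to all genes, with medians of -0.36 and -0.19, and 4 and 2 of 12 were at least 1.5-fold lower, the second count being close to the background. Ccnd1 was at 8.01, 2.35, 10.0 and 5.78 CPM and thus followed the members, while Ccnd2 was at 481, 659, 399 and 524 CPM and ran the other way. Ccnd3 (143, 137, 90.0 and 150 CPM), Myc (17.6, 13, 18.5 and 12.5) and E2f1 (29.8, 19.1, 39 and 34) differed less. Among the 9 genes of the G2 checkpoint list, 5 of 8 measured and 6 of 9 were at least 1.5-fold lower in the irradiated libraries. Wee1, the kinase that restrains Cdk1, was at 2.29, 1.93, 15 and 8.42 CPM, Cdc25b, the opposing phosphatase, at 27.8, 18.5, 16.6 and 15.5, and Gadd45a at 14.6, 7.97, 22.7 and 18.4. The list of 12 inhibitors and pocket proteins had medians of -0.01 and -0.21. Its member Cdkn1a, the p53-induced inhibitor, was at 485 CPM in PBS and 740 in PBS+RT, and 174 in LPS and 429 in LPS+RT. Over the class the order of the 4 libraries was thus the reverse of that of the cycling shares. Within the clusters, Cdkn1a was higher in LPS+RT than in PBS, at 651 and 507 CPM in cluster 6 and 379 and 334 in cluster 14. The places of PBS and LPS+RT in the order over the class were thus not those within the clusters.

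RNA of other cells was also looked at, as it can enter droplets. In alveolar macrophage-like cells the neutrophil gene S100a8 was at 65.4, 15.9, 156 and 74.6 CPM and the alveolar type 2 gene Sftpc at 57.0, 32.8, 33.6 and 75.2. The summed CPM of the 11 neutrophil markers was 269 in marked and 400 in other cells of PBS, 901 and 925 in LPS, and 409 and 401 in LPS+RT. The part of such RNA in the results was not tested, and S100a8 had the same order of libraries as the cycling shares. Marked cells had more UMIs than the others of their class, with medians of 33042 and 23385.5 in PBS, 41379 and 33753.5 in LPS, and 33914 and 24425.5 in LPS+RT.

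In interstitial macrophage-like cells, 10 of 75 cells were marked in PBS (13.3%, 6.58 to 23.2) and 0 of 35 in PBS+RT (at most 3 cells, which allows up to 8.57%), and 35 of 209 in LPS (16.7%, 12.0 to 22.5) and 8 of 232 in LPS+RT (3.45%, 1.5 to 6.68). The share in LPS+RT was 0.21 times that in LPS (0.083 to 0.45). Without thinning, 29.3%, 34.3%, 67.5% and 54.3% of the cells met the count, and 26, 10, 26 and 28 cells were left out for low depth. The counts differed between the 2 clusters of the class. Cluster 22, led by C1qa, C1qb and Apoe, had 26 of 175 marked cells in LPS and 1 of 204 in LPS+RT (0.49%). Cluster 34, with a median of 2079 UMIs and with alveolar macrophage markers beside its own, had 9 of 34 marked in LPS and 7 of 28 in LPS+RT (26.5% and 25.0%), and held 7 of the 8 marked cells of LPS+RT. In PBS, 4 of 48 cells of cluster 22 were marked (8.33%) and 6 of 27 of cluster 34 (22.2%). When genes correlated with the members were barred from clustering too, a cluster of 92 cells with Birc5 and Ube2c among its leading genes was named alveolar macrophage-like. The class of the marked low-depth cells thus depends on the clustering.

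All 13 S phase genes and 20 of 21 G2/M genes were at least 1.5-fold lower in interstitial macrophage-like cells of LPS+RT against LPS, against 15.5% of all genes, with medians of -2.23 and -2.68 and -0.10 over all genes. Mki67 was at 112 CPM in PBS and 33.2 in PBS+RT, and 169 in LPS and 22.7 in LPS+RT, and Top2a at 84.3, 6.64, 136 and 9.08. The ratio of Top2a between the LPS libraries was -3.90 (-4.43 to -3.42). The lowest member was Uhrf1 at -6.33 (-11.65 to -3.82), from 91 UMIs in LPS and 1 in LPS+RT, followed by Cenpf at -5.37 from 140 and 3 UMIs. Cenpa was the exception at -0.10 (-0.42 to 0.23), with 40.1 and 37.6 CPM, and Pcna (110 and 69.3 CPM) and Gins2, a helicase cofactor, followed at -0.67 and -0.70. Cdk1 (20.3 and 5.80 CPM), Ccnb1 (9.81 and 1.76), Mcm5 (32.6 and 4.29), Rrm2 (17.8 and 2.52) and Tyms (19 and 4.03) were all lower in LPS+RT. Stmn1 was at 170 and 38.1 CPM and Hmgb2 at 269 and 116. S100a8, as RNA of other cells, was at 172 CPM in LPS and 25.5 in LPS+RT, and its part in the result was not tested.

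Against PBS, the interstitial macrophage-like cells of LPS differed by phase. The median was 1.12 over the S phase genes, with 9 of 13 at least 1.5-fold higher against 17.8% of all genes, and -0.83 over the G2/M genes, with 13 of 21 at least 1.5-fold lower against 21.2%. The highest were Mcm5 (6.40 CPM in PBS, 32.6 in LPS), Mcm2 (3.20 and 13.8) and Rrm2 (4.27 and 17.8), and the lowest Cdc20 (33.1 and 6.47), Ccnb1 (33.1 and 9.81) and Ccna2 (40.5 and 12.5). In PBS a single cell held 50.4% of the G2/M UMIs of this class, and the 3 top cells held 87.5%, so the PBS level of the G2/M genes is that of very few cells.

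Endothelial-like cells had few marked cells outside LPS. The counts were 19 of 1686 in PBS (1.13%, 0.68 to 1.75) and 15 of 1879 in PBS+RT (0.80%, 0.45 to 1.31), and 31 of 609 in LPS (5.09%, 3.48 to 7.15) and 9 of 1616 in LPS+RT (0.56%, 0.26 to 1.05). The LPS library stood above the other 3 with no overlap. The shares of PBS and PBS+RT were under the 1.52% or more that the counts of 0 in alveolar type 1-like cells of those libraries allow. In LPS+RT, 1 of 142 alveolar type 1-like cells was marked, so no limit of a count of 0 applies there. The LPS share was itself under the 6.12% allowed by the 49 alveolar type 1-like cells of that library. In the neutrophil-like clusters 4, 9, 16 and 21 of LPS, 0.69%, 1.19%, 2.60% and 0.42% of the cells were marked. Other stromal classes were also highest in LPS, with 4 of 78 pericyte and smooth muscle-like cells marked (5.13%, 1.41 to 12.6) against 0 of 206, 0 of 184 and 0 of 141 in PBS, PBS+RT and LPS+RT. Of fibroblast-like cells, 8 of 254 were marked in LPS (3.15%, 1.37 to 6.11), against 2 of 607 in PBS, 3 of 477 in PBS+RT and 9 of 526 in LPS+RT (1.71%, 0.79 to 3.22). In LPS, 3 of the 4 marked pericyte and smooth muscle-like cells came from cluster 20 (3 of 25 cells, median 1494 UMIs). Cluster 11, with a median of 2151 UMIs, held 6 of the 8 marked fibroblast-like cells (6 of 99). The deeper fibroblast-like clusters 15 and 27 had 1 of 113 and 1 of 31 marked in LPS. A single fibroblast-like cell of LPS held 52.3% of the G2/M UMIs of its class. In endothelial-like cells the share in LPS+RT was 0.11 times that in LPS (0.046 to 0.23). As a log2 ratio this was -3.19, and it was -0.57 with at least 2 genes and -0.86 with other S phase and G2/M genes in place of the members. The share in PBS+RT was 0.71 times that in PBS (0.33 to 1.47), an interval that includes 1. Without thinning the shares were 11.9%, 20.6%, 22.0% and 12.8%, with median depths of 5291, 9005, 6777 and 5484 UMIs over all cells of the class, and 309, 96, 76 and 255 cells were left out for low depth.

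Of the 31 marked endothelial-like cells of LPS, 9 came from cluster 35, which is led by Cytl1, Cpe and Vwf and has a median of 2059 UMIs, and they were 9 of its 16 LPS cells. Without that cluster, 22 of 593 cells were marked in LPS (3.71%) and 9 of 1590 in LPS+RT (0.57%), a ratio of 0.15 (0.062 to 0.34). Leaving out a cluster was chosen after its values were seen. In the largest endothelial-like clusters, the LPS and LPS+RT counts were 11 of 212 and 4 of 496 in cluster 1, 6 of 227 and 4 of 596 in cluster 2, and 4 of 122 and 0 of 367 in cluster 8. The cluster named platelet-like stood apart among classes thought not to divide, with 2 of 319 marked in PBS and 0 of 72 in PBS+RT, and 14 of 74 in LPS (18.9%, 10.7 to 29.7) and 2 of 147 in LPS+RT. In its 14 marked LPS cells the 15 endothelial markers summed to 7559 CPM and the 9 platelet markers to 2728, at a median of 2825 UMIs, and in its 60 unmarked LPS cells to 9355 and 2174. Endothelial marker RNA was thus above platelet marker RNA in marked and unmarked cells of LPS, and the class was left out as a background after its share had been seen.

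In endothelial-like cells of LPS+RT against LPS, 10 of 13 S phase genes and 15 of the 18 G2/M genes with enough UMIs were at least 1.5-fold lower, against 10.9% of all genes, with medians of -1.19 and -1.56 and -0.04 over all genes. A single LPS cell held 219 of the 775 G2/M UMIs of the class (28.3%), and the 10 top cells held 69.3%. The G2/M level of LPS was thus largely that of few cells. Mki67 was at 6.97 CPM in PBS and 0.98 in PBS+RT, and 26.4 in LPS and 4.93 in LPS+RT, and Top2a at 7.65, 2.01, 38.6 and 5.81. The lowest members between the LPS libraries were Top2a at -2.73 (-3.16 to -2.32), Mki67 at -2.42 (-2.90 to -1.96) and Ube2c at -1.85 (-2.71 to -1.02). Cenpa (4.44 and 6.43 CPM), Pcna (66.8 and 88.9) and Stmn1 (203 and 223) lay on the other side, with ratios of 0.53, 0.41 and 0.13. Mcm5 (12.3 and 3.96 CPM), Cdk1 (5.45 and 1.76) and Rrm2 (4.24 and 1.59) were lower in LPS+RT. Tyms was at 9.89 and 9.07 CPM, Hmgb2 at 85.8 and 67.0, and Ccnb1 had 6 UMIs in each library. All 12 G1 entry genes were measured, and 4 were at least 1.5-fold lower. Ccnd1, which is abundant in endothelium, was at 197, 79.5, 239 and 168 CPM in the 4 libraries, and Cdkn1a at 871, 1325, 561 and 1489.

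In PBS+RT against PBS the 2 phases of endothelial-like cells separated. The S phase median was 0.03, with 3 of 12 measured genes at least 1.5-fold lower and 1 higher, against 16.4% and 16.1% of all genes, and the G2/M median was -0.88, with 11 of 17 lower. Mki67 had a ratio of -2.83 (-3.66 to -2.08), Top2a -1.93 and Cenpa -0.88, and at the other end Gins2 had 0.54, Mcm4 0.29 and Rrm1 0.26. A single PBS cell held 266 of the 670 G2/M UMIs (39.7%), and without the 3 top cells of each library the G2/M median was -0.15. In LPS against PBS, 9 of 13 S phase and 16 of 18 G2/M genes were at least 1.5-fold higher, against 13.1% of all genes, and the medians were 0.87 and 1.51. As given above, few cells held most of the G2/M UMIs of LPS. Uhrf1 (3.07), Top2a (2.33) and Tpx2 (2.18) were highest, and Cenpa (-1.21), Pcna (-0.39) and Stmn1 (-0.26) lowest.

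**Figure D4:**
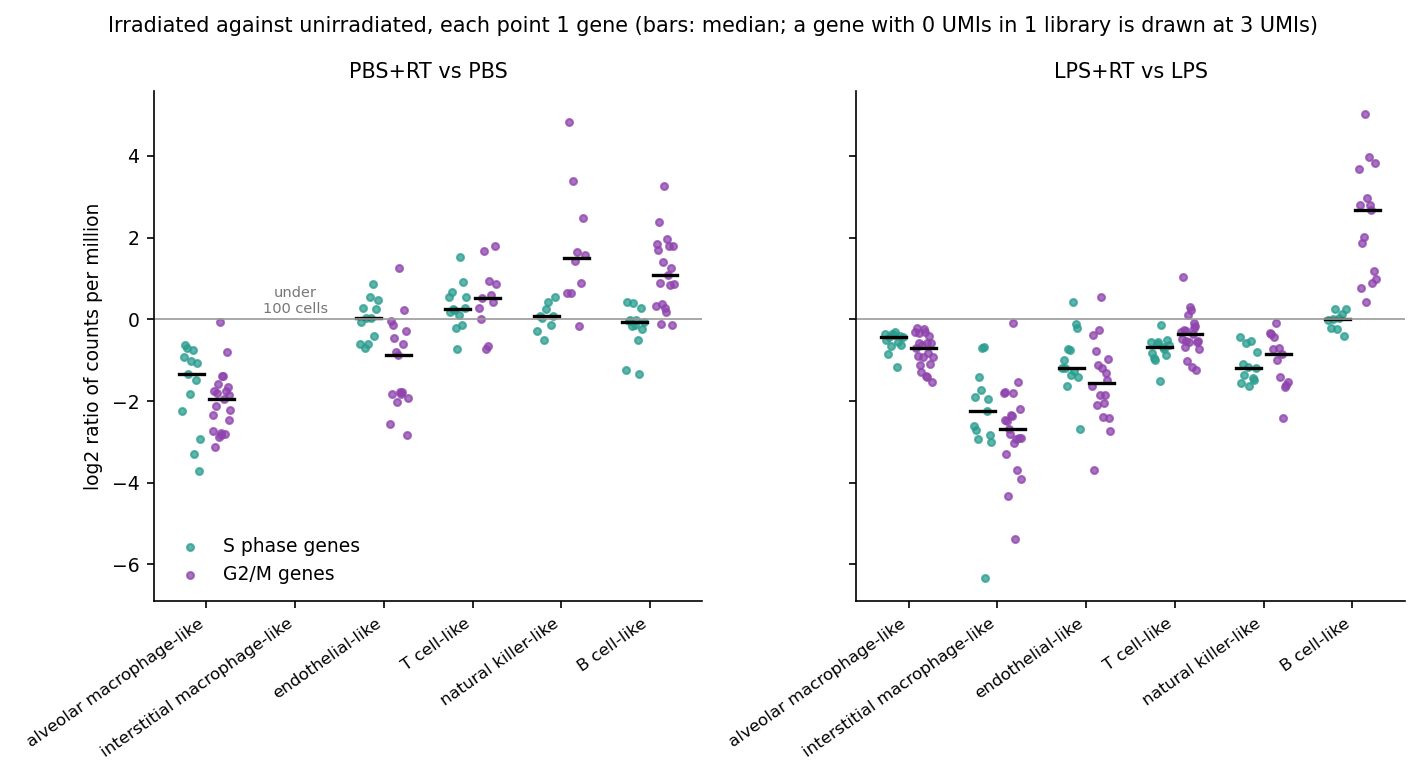
Log2 ratio of CPM, irradiated against unirradiated (y axis), for each S phase and G2/M gene with at least 20 UMIs over the pair (1 point a gene, bars are medians), by class, for the PBS libraries (left) and the LPS libraries (right). Both groups of genes lie below 0 in macrophage-like classes, and the G2/M genes of B cell-like cells lie above 0 in both panels, with medians of 1.07 and 2.67.

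In T cell-like cells, 14 of 369 were marked in PBS (3.79%, 2.09 to 6.28) and 15 of 257 in PBS+RT (5.84%, 3.30 to 9.44), and 46 of 539 in LPS (8.53%, 6.32 to 11.2) and 22 of 507 in LPS+RT (4.34%, 2.74 to 6.50). The share in LPS+RT was 0.51 times that in LPS (0.29 to 0.86), and neighbours in the order PBS, LPS+RT, PBS+RT, LPS had overlapping intervals. Cluster 32, led by Ifng and Xcl1, held 20 of the 46 marked cells of LPS. Mki67 was at 10.7 CPM in PBS and 37.0 in PBS+RT, and 67.8 in LPS and 46.7 in LPS+RT, and Top2a at 24.4, 44.5, 113 and 68.2. In LPS+RT against LPS, 9 of 13 S phase genes and 5 of 21 G2/M genes were at least 1.5-fold lower, against 13.2% of all genes, with medians of -0.69 and -0.37. Gins2 (-1.5), Tpx2 (-1.25) and Cenpe (-1.17) were lowest and Ccnb2 (1.03), Ube2c (0.31) and Cenpa (0.22) highest. The 10 top cells held 62.3% of the G2/M UMIs of the class in LPS and 68.0% in LPS+RT, so these G2/M ratios rest largely on few cells. In LPS against PBS, 10 of 13 and 19 of 21 were at least 1.5-fold higher, against 17.4%, with Cenpe (3.31), Tpx2 (3.01) and Mki67 (2.67) highest and Cenpa (-0.29), Hmgb2 (-0.19) and Pcna (0.13) lowest.

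In natural killer-like cells, 12 of 167 were marked in PBS (7.19%) and 6 of 127 in PBS+RT (4.72%), and 36 of 330 in LPS (10.9%) and 15 of 296 in LPS+RT (5.07%). The ratio of LPS+RT to LPS was 0.46 (0.24 to 0.87), which is -1.11 as a log2 ratio, and -2.17 with at least 5 genes. Mki67 was at 12.8, 71.2, 84.8 and 27.8 CPM, and in PBS+RT 1 cell held 60.7% of the G2/M UMIs. In LPS+RT against LPS, 10 of 12 measured S phase and 9 of 13 G2/M genes were at least 1.5-fold lower, against 10.9% of all genes. Mki67 (-1.61), Mcm3 (-1.57) and Top2a (-1.53) were lowest, and Cenpa (-0.10), Hmgb2 (-0.11) and Stmn1 (-0.42) highest.

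In B cell-like cells, 11 of 545 were marked in PBS (2.02%) and 14 of 382 in PBS+RT (3.66%), and 18 of 406 in LPS (4.43%) and 10 of 445 in LPS+RT (2.25%). Mki67 was at 14.7 CPM in PBS and 50.8 in PBS+RT, and 3.08 in LPS and 43.5 in LPS+RT, so both irradiated libraries were the higher of their pair. In LPS+RT against LPS, 14 of 15 measured G2/M genes were at least 1.5-fold higher, against 5.95% of all genes. The 3 top cells held 54.2% of the G2/M UMIs in LPS+RT, 60.4% in PBS+RT, 31.4% in PBS and 5.12% in LPS. The G2/M levels of the irradiated libraries were thus those of a few cells, with 50% of the UMIs in 3 cells of LPS+RT and 2 of PBS+RT, against 34 cells of PBS and 51 of LPS. The 18 marked B cell-like cells of LPS held at most 5 of the genes each, while 4 of the 10 of LPS+RT held 6 or more.

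**Figure D5:**
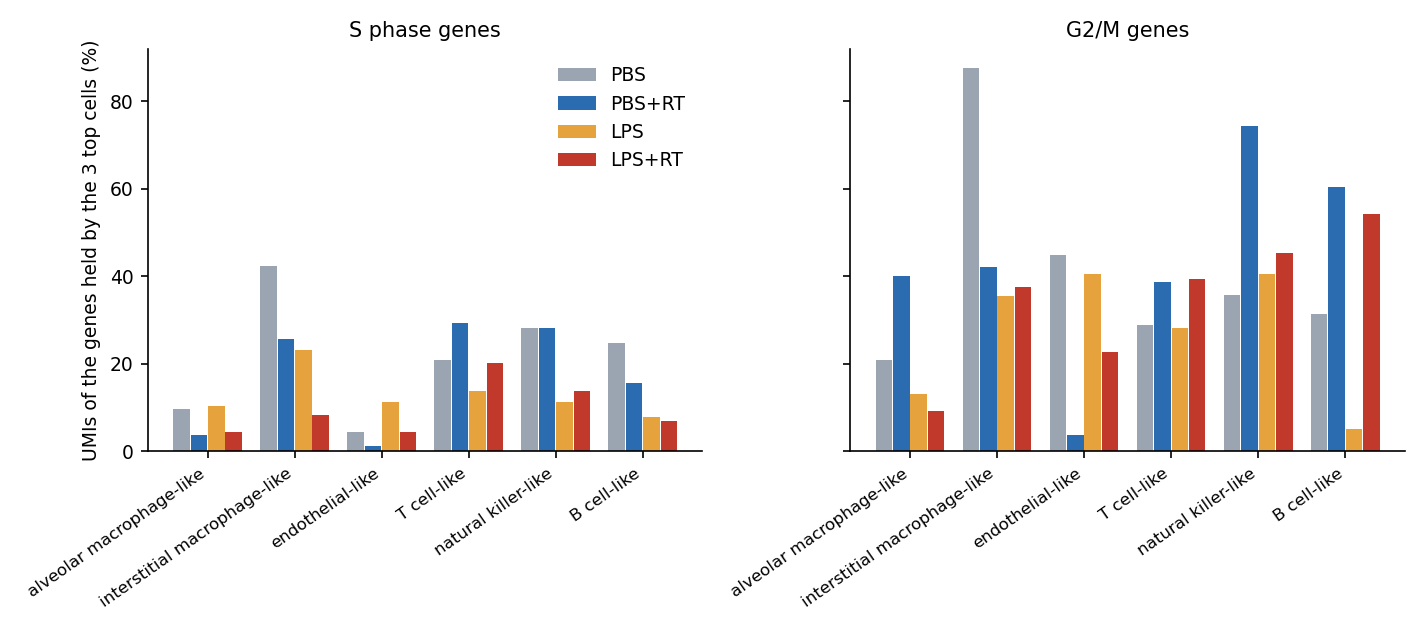
Percent of S phase UMIs (left) and G2/M UMIs (right) of a class that its 3 top cells held (y axis), by class and library. In alveolar macrophage-like cells the 3 top cells held 9.10% to 40.0% of G2/M UMIs, and in B cell-like and natural killer-like cells of PBS+RT 60.4% and 74.2%.

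Over all cells of a library, the members gave another picture than within classes. In LPS+RT against LPS the median was 0.00 over the S phase genes and 0.21 over the G2/M genes, against 0.06 over all genes, although both medians were below 0 in alveolar macrophage-like, interstitial macrophage-like, endothelial-like, T cell-like and natural killer-like cells. Alveolar macrophage-like cells were 2.05% of the cells in LPS and 8.43% in LPS+RT, and they were 60 of 347 marked cells in LPS (17.3%) and 132 of 226 in LPS+RT (58.4%). In sums over a whole library, fewer cells of a class and less RNA per cell cannot be told apart. In PBS+RT against PBS the medians over all cells were -0.51 and -0.81, and 5 of the 70 marked cells of PBS+RT (7.14%) were alveolar macrophage-like against 36 of 128 in PBS (28.1%).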

How the data were processed

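Lung cells of 4 libraries, 1 per group, were measured by single-cell RNA sequencing. The authors deposited unnormalized UMI counts for each gene and barcode from Cell Ranger, per the file headers. The submitters' processing notes name mm10, Seurat 4.3.0, R 4.2.2 and Cell Ranger 7, and whether intron reads were counted is not given in the sources used here. Barcodes under 500 UMIs or 200 genes, or over 10% of mitochondrial UMIs, were dropped, which left 34440, and 773 doublets scored by Scrublet in scanpy 1.11.5 were removed, between 1.65% and 2.90% per library. Cell barcodes shared between libraries were not analysed here.

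Clusters were made with leidenalg 0.10.2 at resolution 1.5 on 2000 variable genes, 30 components and 15 neighbors, with 282 cell cycle and related genes barred, so that the members do not set the classes. The replication factor Pclaf, which is not a member, was not barred. This gave 48 clusters. Naming required 3 or more markers of a class, each found in 10% or more of a cluster's cells and 2-fold above the other clusters. These limits, and the merging of related classes, were set after clusters had been inspected. The members and all gene lists were chosen with earlier results of these data known.

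UMIs were summed per class and library and divided by the class total (CPM). Ratios have exact conditional binomial intervals, levels exact Poisson intervals and shares exact Clopper-Pearson intervals, all of 95%. Genes with at least 20 UMIs over a pair entered, a gene at 0 was put at 3 counts, the limit of a share of 0 is 3 cells of the total, and ratios need 100 cells of the class in both libraries. The design has no replicates, so no test was run and no gene was called beyond a ratio of 1.5. Named genes are 10 fixed members, and the 3 highest and 3 lowest with at least 50 UMIs where a class had at least 30 marked cells in a pair. Scripts were tested on simulated data. Promoter windows and their starts are from RefSeq on GRCm38.p6, with 1 window per gene. For a member it was the window nearest the gene's start in GENCODE. For the background of all genes it was the window with the lowest coordinate, so the choice differed. Computation used matplotlib 3.10.9, pandas 2.3.3, scipy 1.17.1, numpy 2.4.6 and Python 3.11.15. Alternatives changed the number of genes that mark a cell, thinning, doublets, clustering, naming, scaling and the cells included.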

Additional observations from a re-analysis of the deposited data

Results flagged for a closer look

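In T cell-like cells the share of marked cells was 1.54 times as high in PBS+RT as in PBS (15 of 257 and 14 of 369 cells, interval 0.69 to 3.44) and 0.51 times as high in LPS+RT as in LPS (22 of 507 and 46 of 539, 0.29 to 0.86). The irradiated library was thus the higher of the PBS pair and the lower of the LPS pair. In B cell-like cells the corresponding ratios were 1.82 (14 of 382 and 11 of 545 cells, 0.77 to 4.42) and 0.51 (10 of 445 and 18 of 406, 0.21 to 1.16), again in opposite directions. With 1 library per group these differences between the pairs were not tested, and 3 of the 4 intervals include 1. Of the 18 marked B cell-like cells of LPS, 16 held exactly 3 of the genes. In these 18 cells the 11 neutrophil markers summed to 2181 CPM and the 15 endothelial markers to 2361. In the 388 unmarked B cell-like cells of LPS the sums were 441 and 742. The part of RNA of other cells in the B cell-like ratio was not tested.

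The cells of unnamed clusters enter no comparison by class, and in LPS 33 of 372 of them were marked (8.87%), against 9 of 634 in PBS (1.42%), 2 of 422 in PBS+RT (0.47%) and 5 of 497 in LPS+RT (1.01%). Most came from cluster 0, with 24 of 146 marked in LPS (16.4%), 4 of 109 in PBS, 1 of 82 in PBS+RT and 1 of 136 in LPS+RT. Cluster 0 stayed unnamed for few UMIs (median 990), and its markers were closest to those of endothelial cells. In the 33 marked cells the 15 endothelial markers summed to 10551 CPM and the 11 neutrophil markers to 2478.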

How the results depend on the processing

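No paired analysis was possible because each group has 1 library and the labels carry no replicate numbers. Values here are log2 ratios. Of 127 alternative values of the marked share, 125 kept their sign, as did 187 of 190 list medians and 354 of 366 values of single members. For PBS+RT against PBS in alveolar macrophage-like cells the share was -2.94; it was -1.24 with at least 2 genes, -0.18 without thinning and -1.0 with the other lists, the S phase and G2/M shares without thinning were -0.55 and -0.76, and the G2/M median without the 3 top cells was -2.93. For endothelial-like cells of that pair, the share without thinning was 0.96 (-0.50 with it), and the G2/M median without the 3 top cells -0.15. For LPS+RT against LPS, the alveolar macrophage-like share without thinning was -0.19, the S phase median without the largest cluster -0.23, and the G2/M median with cells weighted equally -1.16. For interstitial macrophage-like cells (share -2.28) the share was -0.43 without thinning, -4.92 when named by each cell's own markers, -0.082 without the largest cluster and -4.99 when correlated genes were barred too. Their S phase median was -1.40 when clustered with cell cycle genes, and their G2/M median -2.05 with equal weights, -1.73 with cell cycle genes, -3.10 without the 3 top cells and -3.40 with correlated genes barred. Signs turned there for Cdk1 (0.13) and Pcna (0.22) without the largest cluster and for Rrm2 (0.70) with cell cycle genes. For endothelial-like cells (share -3.19) the values were -0.57 with at least 2 genes, -5.11 with 5, -4.58 with 6, -0.82 without thinning and -0.86 with the other lists, and the G2/M median with cell cycle genes was -0.69. In T cell-like cells the S phase median without the 3 top cells was -1.03, and the G2/M median -0.90 with cell cycle genes, -0.70 without the 3 top cells and -0.69 with correlated genes barred. In natural killer-like cells the share with at least 5 genes was -2.17 and the G2/M median without the 3 top cells -1.62. For LPS against PBS in alveolar macrophage-like cells (share 2.53) the share was 1.65 with at least 2 genes, 0.31 without thinning, 0.80 without the largest cluster and 1.67 with the other lists. The S phase share without thinning was 0.71, the G2/M share 1.52 without thinning and 1.79 with at least 5 genes, and the medians without the largest cluster 0.36 and 0.027, where Cdk1 (-0.39), Ccnb1 (-0.10), Tyms (-0.038), Stmn1 (-0.0025) and Hmgb2 (-0.15) turned. In endothelial-like cells (share 2.18) it was 0.80 with at least 2 genes, 4.17 with 5, 4.64 with 6, 3.73 thinned to 1000 UMIs, 0.96 without thinning and 0.77 with the other lists. In T cell-like cells the share with the other lists was 0.14, the S phase median without the 3 top cells 1.39, and the G2/M median 1.37 with equal weights and 2.25 without the 3 top cells. Equal weights, fewer genes and unthinned cells change what is counted by their construction; the cause of the other differences was not tested. With at least 5000 UMIs per cell all 6 shares named above for LPS+RT against LPS or PBS+RT against PBS in alveolar macrophage-like, interstitial macrophage-like, endothelial-like (LPS), T cell-like and natural killer-like cells kept their sign. Depth limits the rare classes: in PBS+RT, a count of 0 among 35 interstitial macrophage-like cells allows a share of up to 8.57%.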

Other observations

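The class named classical monocyte-like lay in different clusters in different libraries. Cluster 18 held 570 of its cells in LPS and 122 in LPS+RT, against 2 in PBS and 1 in PBS+RT, and was led by Saa3, Arg1 and Nos2, genes of inflammatory macrophages, beside the monocyte gene Ly6c2. Cluster 28, led by F13a1, Plac8 and Vcan, held the others, and the name describes that cluster better than cluster 18. In LPS, Mki67 was at 150 CPM over both clusters, with a UMI in 19.3% of the thinned cells, and these cells held 29.2% of all Mki67 UMIs of the library, while 18 of 674 were marked. In LPS+RT Mki67 was at 51.4 CPM and 5 of 217 cells were marked. Ube2c was at 7.39 CPM in LPS and 21.6 in LPS+RT and Cdk1 at 2.58 and 5.39, but 1 cell of LPS+RT held 369 of the 793 G2/M UMIs (46.5%), so the levels of that library rest largely on a single cell.

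Marked neutrophil-like cells stood apart within their class. In LPS the 29 marked cells had a median of 7980 UMIs and a summed level of the 11 neutrophil markers of 104518 CPM, against 5492 UMIs and 35593 CPM in the other 2925 cells. In PBS+RT the 4 marked cells had a median of 37913 UMIs, and neutrophil-like cells held 16.1% of all Mki67 UMIs of that library, with 1.39% of all UMIs. All 4 lay in cluster 23, led by Ngp and Camp (4 of 85 cells). The 3 top neutrophil-like cells of PBS+RT held 85.0% of the 834 G2/M UMIs of the class, so that level is one of very few cells.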
